A study of Mus musculus with 4 samples.

Results

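The beta-globin locus was examined for KLF1 occupancy over a 100 kb window of mouse chromosome 7, from 110940000 to 111040000 on build mm9. The window was chosen by position. It holds the 4 named genes of the locus, Hbb-b1 and Hbb-b2 (adult) and Hbb-bh1 and Hbb-y (embryonic), and their locus control region. Its members were the 4 listed KLF1 peaks with a start in the window, of 945 peaks in the whole list, and all aligned reads in it, 827 from KLF1 ChIP and 1369 from input. In ChIP-seq, an antibody pulls down a protein together with the DNA it holds, and the fragments are sequenced and counted by position. Input is DNA of the same material without this pull-down.

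The material was mouse fetal liver at E14.5, labelled Balb/c Klf3 -/- and female, with erythroid given as the cell type. The livers of 4 embryos were pooled. Both groups came from this Klf3-deficient material: KLF1 ChIP was made with a rabbit polyclonal antibody to KLF1, and input without antibody. No Klf3 wild-type or KLF1-deficient group was analysed here. The 4 samples were 1 ChIP and 1 input run on each of SOLiD System 2.0 and 3.0, and the deposited data merged the 2 runs of each group. Each group was therefore analysed as 1 merged library, and replicate error could not be estimated. The tests below compare 2 libraries, not conditions, and their intervals cover counting error only. The readout was DNA, so the labelled cell type could not be checked against markers.

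The beta-like globins are the beta-type chains of haemoglobin. In the mouse, Hbb-y and Hbb-bh1 are used by primitive red cells of the yolk sac, and the adult genes by the definitive red cells that the fetal liver makes. The locus control region is a group of DNase hypersensitive sites on the Hbb-y side of the cluster that is needed for high expression of all these genes. KLF1 (EKLF) is an activator of red cell genes with zinc fingers that recognises CACCC-type sequences and is best known for its need in adult beta-globin expression. Balb/c mice carry the diffuse haplotype, with Hbb-b1 and Hbb-b2, whereas the C57BL/6J reference genome carries the single haplotype, whose adult genes are named Hbb-bs and Hbb-bt.

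The letters that KLF1 can recognise differed between the promoters of the cluster. The RefSeq promoter table (build GRCm38.p6) held 1 of the 4 named genes, Hbb-y, and 4 promoters of beta-like globin genes in all. They are shown because the longer KLF1-type motif CCNCNCCC was found in both adult promoters and in neither of the others, while the shorter CACCC was also found in Hbb-y. Since 45.9% of all 32851 promoters in the table held CCNCNCCC, this split among 4 promoters is a description and not a result about the cluster. Each run is the 150 bases before the transcript start, read on the minus strand, with capitals for matches to CCNCNCCC (N is any base) or CACCC:
Hbb-bs (adult), chr7:103827929-103828078: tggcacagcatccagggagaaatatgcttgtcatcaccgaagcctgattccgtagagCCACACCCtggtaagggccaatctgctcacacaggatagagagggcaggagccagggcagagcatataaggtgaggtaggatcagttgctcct
Hbb-bt (adult), chr7:103813924-103814073: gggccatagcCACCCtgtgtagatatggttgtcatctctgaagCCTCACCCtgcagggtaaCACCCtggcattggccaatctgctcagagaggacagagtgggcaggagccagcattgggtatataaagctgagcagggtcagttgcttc
Hbb-y (embryonic), chr7:103853208-103853357: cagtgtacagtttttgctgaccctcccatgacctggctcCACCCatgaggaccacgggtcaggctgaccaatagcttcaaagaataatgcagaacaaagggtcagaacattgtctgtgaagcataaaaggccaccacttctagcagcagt
Hbb-bh2 (a further gene of the cluster), chr7:103840522-103840671: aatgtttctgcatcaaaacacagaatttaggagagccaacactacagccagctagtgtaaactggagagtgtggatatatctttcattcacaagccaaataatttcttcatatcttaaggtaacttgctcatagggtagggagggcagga

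In Hbb-bs, CCNCNCCC was matched once in the 250 bases before the start, as CCACACCC at bases 93 to 86 before it. Hbb-bt held 1 match too, as CCTCACCC at bases 107 to 100, and CACCC in 3 places, 1 of them inside that match. Hbb-y held 1 CACCC, at bases 111 to 107, and no CCNCNCCC, and Hbb-bh2 held neither. The GATA-type NGATAA was found once in each of the 4. Of all 32851 promoters in the table, 45.9% held CCNCNCCC, 52.0% CACCC and 22.5% NGATAA over the same 250 bases on either strand, so each is common. A match is a description of the letters, not a bound site. The positions above are on GRCm38.p6 and cannot be set against the mm9 positions below, since no mm9 gene annotation was used here. The adult promoters shown are those of the reference haplotype, not of the Balb/c material. Hbb-b1, Hbb-b2 and Hbb-bh1 are named only.

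For the reads, the window was divided by distance from its start: an outer part past the adult genes (0 to 15 kb), the genes (15 to 65 kb), the control region (65 to 85 kb) and an outer part past the control region (85 to 100 kb). These bounds came from general knowledge of the locus, not from an annotation, so a site is placed on the gene side or in the control region, not at a named promoter. They were set with earlier results of these data known, so the comparisons of parts below were not blind to the data.

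KLF1 was listed at 3 sites in the control region and at 1 on the gene side. Height here is the authors' number of ChIP reads over the summit, where a read reaches 100 positions beyond its 5' end. It ran from 9 to 57 over all 945 peaks, with a median of 11. The sites of this locus stood at 17, 13, 12 and 10, higher than 82.8%, 65.1%, 58.0% and 30.1% of the listed peaks. These heights chose the peaks and are given as a description.

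The highest of the 4 was listed at 111007774 to 111007784, in the control region, 67.8 kb into the window. Its summit was covered by 17 ChIP reads and 0 input reads. With the input at a floor of 3 counts in that library, ChIP was at least 15.4-fold higher. Among all listed peaks 143 were higher and 20 had the same height.

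The second control-region site, at 111009586 to 111009591, lay 1.8 kb further on. Its summit held 13 ChIP reads and 2 input reads. Scaled to all aligned reads of each library, as all ratios here, this was 17.7-fold (95% interval 4.00 to 161). In the list 270 peaks were higher.

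The last, at 111019396 to 111019397, lay 9.8 kb beyond the second. Its 10 ChIP reads and 3 input reads gave a ratio of 9.05 (95% interval 2.33 to 51.2). It was 1 of 157 peaks of height 10, and 504 were higher.

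The only listed site on the gene side was 110976442 to 110976445, 31.3 kb before the nearest control-region summit. It had 12 ChIP reads and 3 input reads, a ratio of 10.9 (95% interval 2.93 to 60.0), and 330 peaks were higher. Its height of 12 lay between the 13 and 10 of the lower control-region sites. The intervals of the 4 summits overlap, so at this depth their enrichments could not be ranked. With 1 read added to each count, all 4 were at 5-fold or more (7.47 to 48.9), as were 98.2% of all listed peaks, by which they had been chosen.

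**Figure D1:**
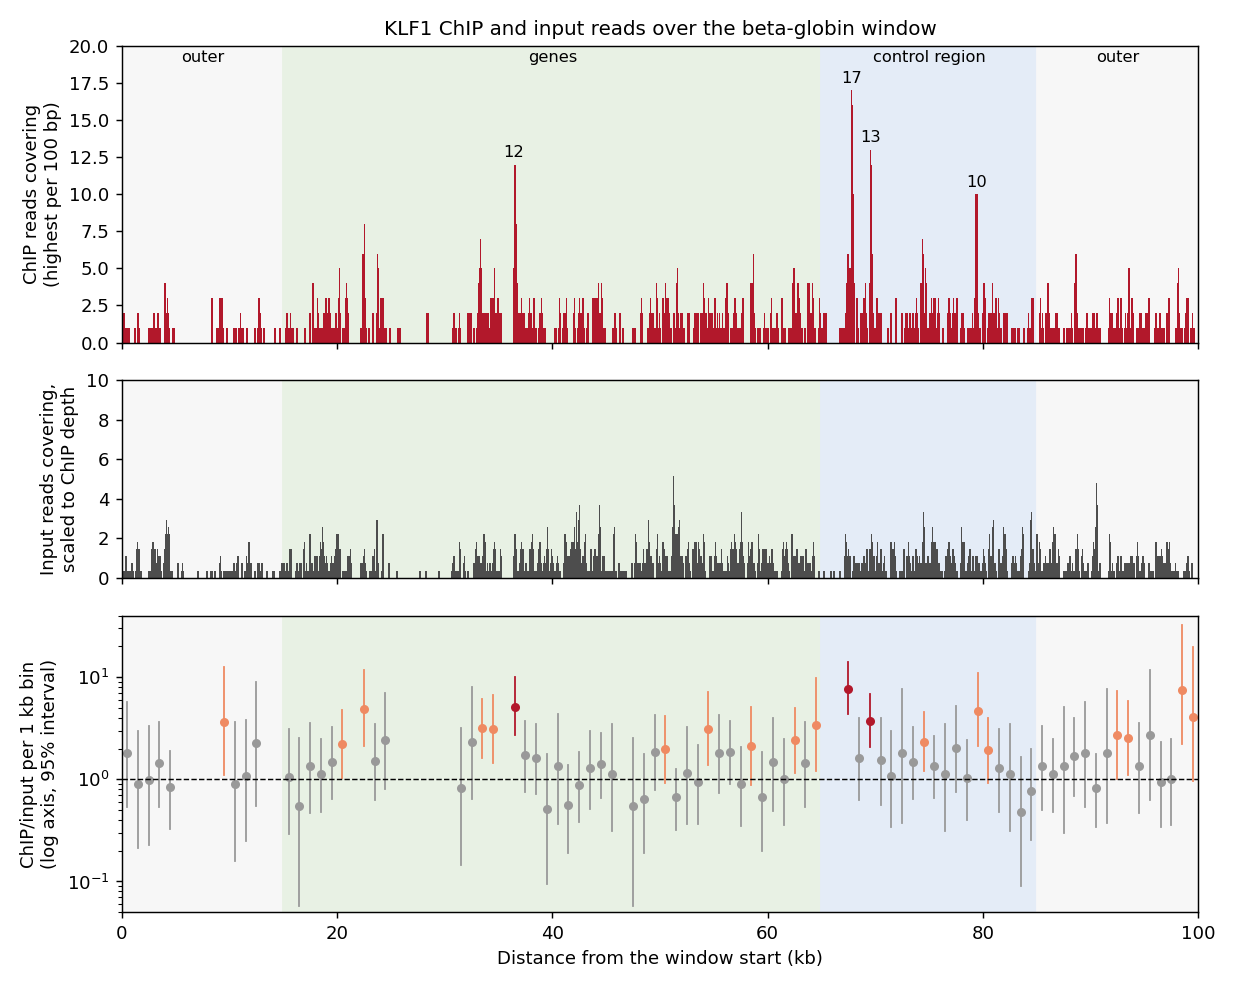
ChIP pileup, input pileup scaled to ChIP depth (both the highest value per 100 bp) and the ChIP to input ratio per 1 kb bin with its 95% interval (log axis), against distance from the window start. Numbers above the ChIP track are the listed heights of 12, 17, 13 and 10. In the lowest panel dark red marks the 3 bins past the adjusted threshold, orange those with an unadjusted p under 0.05 and grey the others, and the 4 shaded stretches are the parts of the window.

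Reads beside a summit do not set its height, so the flanks, beyond 100 and up to 300 positions from the listed start, were tested. The flank of the control-region summit at 111007774 held 17 ChIP and 7 input reads, a ratio of 6.59 (95% interval 2.60 to 18.8, one-sided exact binomial adjusted p = 0.000166). The gene-side flank at 110976442 held 11 and 5 reads, a ratio of 5.97 (1.91 to 21.9, adjusted exact p = 0.0044). These 2 passed after adjustment over all 945 peaks, of which 29.0% passed.

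The flank at 111009586 held 8 ChIP and 6 input reads, a ratio of 3.62 (1.10 to 12.7, adjusted exact p = 0.0538). That at 111019396 held 4 and 4, a ratio of 2.72 (0.506 to 14.6, adjusted exact p = 0.264). Neither passed, and with so few reads the intervals still reach 12.7-fold and 14.6-fold. With a flank ending at 200 positions the calls changed places: 111009586 passed at 6.34-fold (adjusted exact p = 0.0347) and 110976442, at 5.43-fold, did not (adjusted exact p = 0.0614).

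The strand of each read marks which end of its fragment was sequenced. The listed height counts forward reads up to 100 positions before the summit and reverse reads up to 100 after it, so an order of strands close to a summit is built in by the choice of the highest pileup and is given as a description, with no test. Within 300 positions of the 4 listed starts, 23 ChIP reads before the start were forward and 9 reverse, and after it 22 were forward and 49 reverse. By site, 111009586 had 6 forward and 1 reverse before and 3 and 13 after, and 111007774 had 10 and 4 before and 8 and 16 after. At 110976442 there were 4 and 0 before and 7 and 14 after, and at 111019396, the lowest summit, 3 and 4 before and 4 and 6 after.

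Reads beyond 100 positions do not enter the height on either strand. Of these the ChIP had 5 forward and 4 reverse before the 4 starts and 13 and 18 after, an odds ratio of 1.73 (95% interval 0.301 to 10.4, two-sided Fisher exact p = 0.705). No strand order was detectable in them. The libraries were made from fragments of 80 to 130 bp, per the labels. Reads that far out could therefore show little order either way, and the test cannot decide whether the sites have one.

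**Figure D2:**
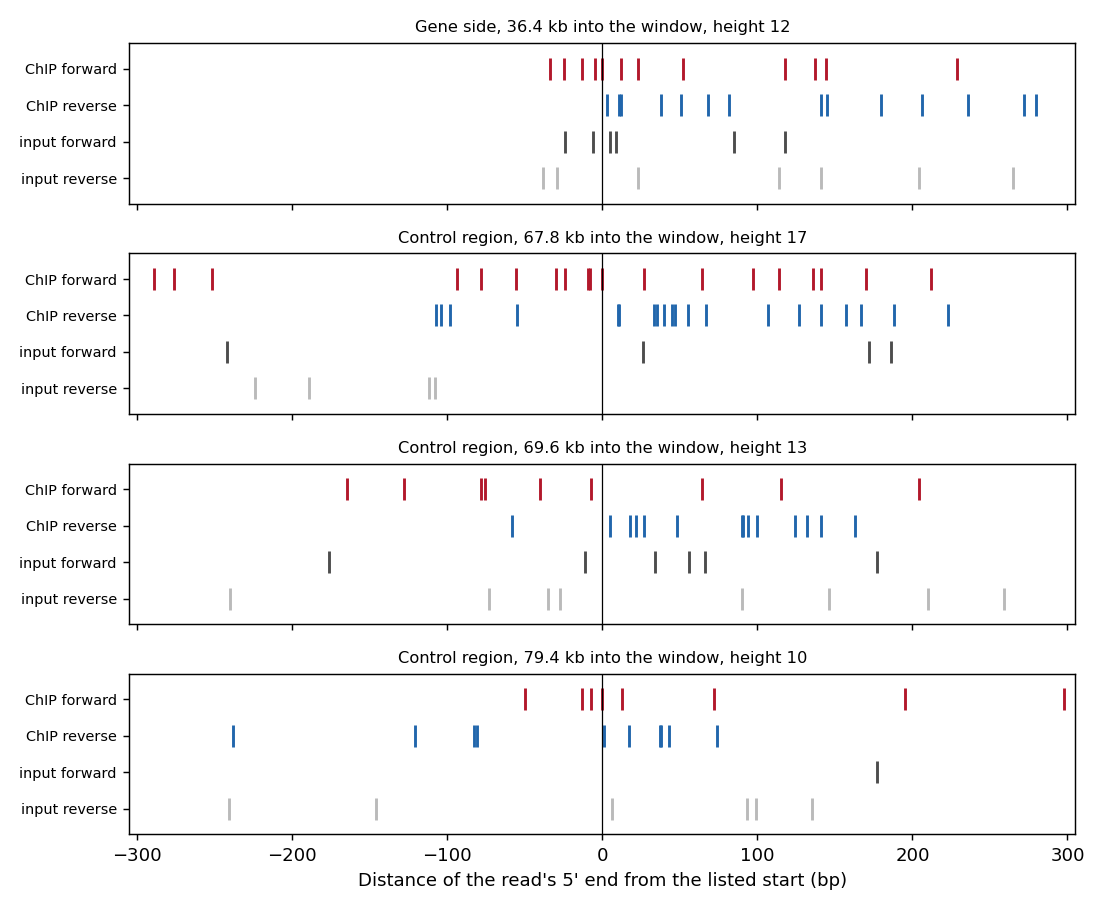
Each tick is the 5' end of 1 read, by library and strand, against its distance in bp from the listed start, for the 4 listed sites in order along the window. Over the 4 sites 23 ChIP forward reads (red) lie left of the start and 22 right of it, against 9 and 49 ChIP reverse reads (blue), and at the gene-side site neither library has a read more than 38 bp to the left.

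The gene-side summit lay at the edge of a stretch without reads. No read of either library started in the 1213 positions that ended 38 positions before 110976442, so its flank reads all came from 1 side and the reads before its start were few. The genes held 7 such empty stretches of at least 500 bp, 7670 bp in all and up to 2024 bp long. The control region held 1, of 554 bp. The outer part past the adult genes, only 15 kb wide, held 6, of 4649 bp in all, and the other outer part 1, of 764 bp. Such stretches were therefore not particular to the genes. The adult genes are close copies of each other, and the sources used here do not give how the authors treated reads with several matches. The reference genome also carries another haplotype of the adult genes than Balb/c, as given above. The part of either in the gaps was not tested, and KLF1 occupancy inside them was not measured.

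Sites under the height of the list were found by the highest ChIP pileup between listed sites and in each outer part. The highest was on the gene side at 110962545, with 8 ChIP and 3 input reads (ratio 7.24, 95% interval 1.74 to 42.4). It lay 359 positions past an empty stretch of 820 bp, on the same side of its gap as the listed gene-side summit. In the control region, 111014317 had 7 ChIP reads and 0 input reads. Its ratio was 6.34 with the input set to a floor of 3 counts, and its exact 95% interval without the floor ran from 3.91 upward. As for all sites here, the first position at its height was taken, in this case of 55. The input count of 0 is given for that position only, and within the same 100 bp input scaled to ChIP depth reached 1.84. The whole 1 kb from 111014000 held 19 ChIP and 22 input reads, 2.35-fold (1.20 to 4.54). Positions 110998654 (genes), 111007440 (control region, beside the highest summit) and 111028635 (outer part past the control region) each had 6 ChIP reads and 1 input read (ratio 16.3, 1.98 to 749). The other 3 stretches reached only 4 ChIP reads, over 2 to 4 input reads. Heights of this size are frequent. Joining positions of height 7 or more within 200 positions of each other over the autosomes and chromosome X, 1554 stretches peaked at 8, of which 686 were at 5-fold or more with 1 read added, and 6428 peaked at 7.

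Bins of 1 kb were tested over the whole genome, 2234392 bins with at least 10 reads. In the window 3 of 83 tested bins passed (one-sided exact binomial test, Benjamini-Hochberg adjusted p under 0.05), against 0.0225% of bins genome-wide. The bin from 111007000, in the control region, held 48 ChIP and 17 input reads, 7.67-fold (95% interval 4.33 to 14.2, adjusted exact p = 1.26e-10). That from 110976000, on the gene side, held 30 and 16, 5.09-fold (2.69 to 10.001, adjusted exact p = 0.000594). That from 111009000, in the control region, held 29 and 21, 3.75-fold (2.07 to 6.92, adjusted exact p = 0.0207). Each holds a listed summit, and the reads of the summit are among those counted.

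The bin of the fourth listed summit, from 111019000, held 19 and 11 reads, 4.69-fold (2.12 to 10.9), and did not pass (adjusted exact p = 0.108). The bin of the unlisted gene-side site, from 110962000, held 18 and 10, 4.89-fold (2.14 to 11.9, adjusted exact p = 0.126). At an unadjusted p under 0.05 there were 20 bins in the window, 24.1% of those tested, against 4.57% of all bins. They were 10 of 41 among the genes, 5 of 18 in the control region, 1 of 9 and 4 of 15 in the outer parts. With 500 bp bins 1 bin of the window passed.

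Counted as whole stretches, the control region held more ChIP relative to input than the genes did. It held 233 ChIP and 308 input reads (11.7 and 15.4 per kb), a ratio of 2.05 (1.73 to 2.44, two-sided exact binomial test, p = 2.45e-15 after adjustment over the 4 parts). The genes held 421 and 743 (8.42 and 14.9 per kb), a ratio of 1.54 (1.36 to 1.74, adjusted exact p = 1.04e-11). The odds ratio between them was 1.34 (1.08 to 1.65, two-sided Fisher exact p = 0.00744, or 0.0211 adjusted over 4 such exact comparisons).

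The difference was not seen away from the listed summits. Without reads within 300 positions of them, the control region was at 1.49 (1.21 to 1.82) and the genes at 1.47 (1.30 to 1.66), with an odds ratio of 1.01 (0.797 to 1.29, Fisher exact p = 0.906). Leaving out only the highest summit, 111007774, gave 1.14 (0.913 to 1.42, Fisher exact p = 0.243), and the call was lost. That site was chosen for its high ChIP, so a fall was built in. The other summits were not left out singly, so the call cannot be tied to this site alone.

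ChIP exceeded input beyond the listed summits too. Both stretches remained above 1 without the summits (adjusted exact p = 0.000224 for the control region and 6.4e-09 for the genes). The outer part past the control region, without a listed site, held 117 ChIP and 203 input reads, a ratio of 1.57 (1.24 to 1.97, adjusted exact p = 0.000251). The outer part past the adult genes held 57 and 121, a ratio of 1.28 (0.917 to 1.77, adjusted exact p = 0.128), and did not pass. The odds ratio of the control region to that part was 1.61 (1.11 to 2.34, adjusted Fisher exact p = 0.0211), and to the other outer part 1.31 (0.979 to 1.76, adjusted exact p = 0.0831). Scaled to the outer parts in place of the whole libraries, the control region was at 1.41 (1.18 to 1.68, adjusted exact p = 0.000203) and the genes at 1.06 (0.934 to 1.19, adjusted exact p = 0.389). The outer parts hold few reads and were taken here as a fixed scale. Their own counting error is left out, so these intervals are too narrow and the exact p-values too small.

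**Figure D3:**
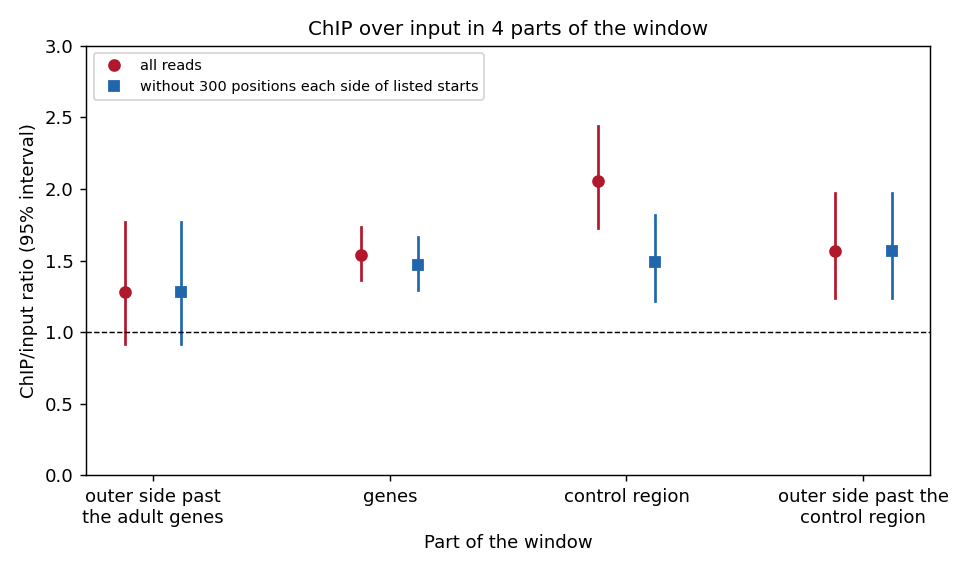
Ratio of ChIP to input reads, scaled to all aligned reads, in the 4 parts of the window, with 95% exact intervals; red circles count all reads and blue squares leave out 300 positions on each side of the listed starts. The control region falls from 2.05 to 1.49, beside 1.47 for the genes, and the part past the control region is at 1.57 with no listed site.

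Over the whole window the ratio was 1.64 (95% interval 1.50 to 1.79). Of 24904 windows of 100 kb with at least 500 input reads, cut at the same spacing, the median was 1.02 and 17 were as high, this window included. The control region, at 2.07 by 5' ends, was among 25 of 123535 stretches of 20 kb that were as high, and the genes, at 1.54, among 78 of 49648 of 50 kb. Input was thinner here than usual, at 13.7 reads per kb against a median of 18.9, and its part in the ratio was not tested.

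The surroundings were lower. The 200 kb before the window held 1022 ChIP and 2361 input reads, a ratio of 1.18 (1.09 to 1.27), and the 200 kb after it 1384 and 3374, a ratio of 1.11 (1.05 to 1.19). Neither held a listed peak. The window exceeded them with odds ratios of 1.40 (1.24 to 1.57, Fisher exact p = 9.54e-09) and 1.47 (1.32 to 1.64, Fisher exact p = 1.52e-12). Inside the window the excess was uneven. The stretch from 20 to 40 kb, with the listed gene-side summit and the unlisted site at 110962545, was at 2.26 (1.83 to 2.80). That from 60 to 80 kb, with all 3 control-region summits, was at 2.28 (1.91 to 2.71). Between them, 40 to 60 kb was at 1.20 (0.996 to 1.44). The 20 stretches of 20 kb outside ranged from 0.745 to 1.57, so both high stretches lay above all of them, though the interval of the highest outside, next to the window (1.26 to 1.96), reached into theirs.

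**Figure D4:**
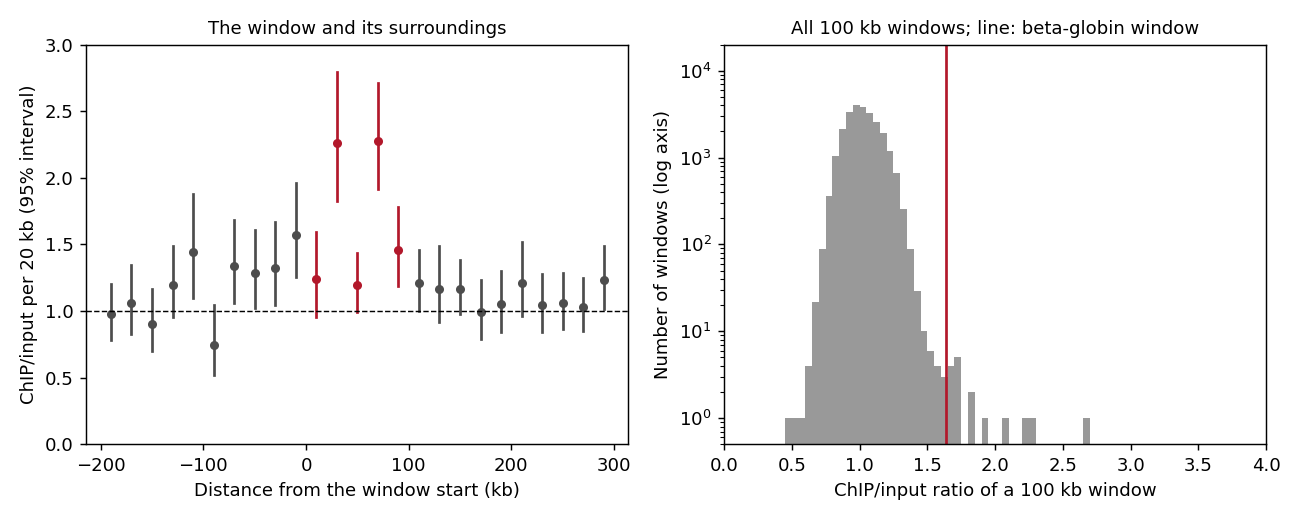
Left, ChIP to input ratio with its 95% interval per 20 kb from 200 kb before to 200 kb after the window, against distance from the window start, with the window in red. Right, number of 100 kb windows of the genome (log axis) by their ratio, with a line at the 1.64 of the beta-globin window. The stretches at 20 to 40 kb and 60 to 80 kb stand at 2.26 and 2.28, and 17 of 24904 windows reach the line.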

How the data were processed

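KLF1 ChIP and input DNA were sequenced on SOLiD System 2.0 and 3.0, and the deposited files merge both systems, per the labels. The deposited read files give chromosome, position and strand on mm9, per the submitters' processing notes. The ChIP library held 17438921 reads and the input 47356494. For the aligner, the peak caller and the handling of repeated matches: not given in the sources used here. Within a library no reads shared position and strand. The fourth column of the peak list, deposited by the authors, is a signal, the unscaled ChIP pileup: it equalled the ChIP reads over the listed start, each reaching 100 positions beyond its 5' end, for 945 of 945 peaks. Coordinates are as deposited.

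Ratios were scaled to all aligned reads, with exact Clopper-Pearson 95% intervals. Subregions were counted by extended reads that overlap them, bins, flanks and surroundings by 5' ends. Fisher and binomial tests were exact, with Benjamini-Hochberg adjustment at 0.05. Named sites were all listed peaks of the window, the highest pileup between them and in each outer part, and bins past the threshold. The members, parts of the window and motifs were chosen with earlier results of these data known. The surroundings, genome windows, gaps and counts of stretches by height were added after seeing the data. The bin test was tested on simulated counts, drawn for both libraries from a shared background with counting error only. Further spread between the libraries was not simulated. Tests used SciPy 1.17.1 and NumPy 2.4.6 under Python 3.11.15, tables pandas 2.3.3, and plots matplotlib 3.10.9.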

Additional observations from a re-analysis of the deposited data

How the results depend on the processing

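Of 66 alternatives over 16 results, 3 of them chosen after seeing the data, 59 kept direction and side of the threshold, or stayed within the main interval or within 1.5 times a count. Some of these could hardly change a result. Extending reads to 80 or 130 positions left every ratio of whole parts the same. Leaving out reads near listed starts changes nothing in the outer parts, which hold no listed start. The odds ratio of control region to genes was 1.01 without the listed summits and 1.14 without the highest one, an alternative added later. Both lost the call, and both leave out the reads that lie at summits. Scaled to the outer parts of the window, the genes were at 1.06 and lost the call. With flanks ending at 200 positions, 110976442 was at 5.43 and lost its call, and 111009586 at 6.34 gained one; the cause was not tested. With 500 bp bins 1 bin of the window passed, in place of 3; the cause was not tested. The strand order of ChIP reads at the 4 summits, an odds ratio of 5.69 that the choice of summits builds in, was 1.73 and not past the threshold for reads beyond 100 positions, which do not set the height. With fragments of 80 to 130 bp, reads that far out could show little order either way. None of these alternatives reversed a result. At summits with 10 to 17 ChIP reads and 0 to 3 input reads, depth limits every single-site ratio. No paired analysis was possible because the runs of each group are merged, and for the same reason no run could be left out.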
